A study of Homo sapiens with 2 samples.

Results

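Vimentin, 3 classical cadherins, fibronectin, the TGF-beta-induced matrix protein TGFBI and 4 transcription factors of the epithelial to mesenchymal transition were followed in KYSE30 cells with and without RHCG. The 10 genes were taken by name (VIM, CDH1, CDH2, CDH3, FN1, SNAI1, SNAI2, ZEB1, TWIST1 and TGFBI), each matched to 1 Entrez identifier among the 40392 genes of the tables. KYSE30 is an established line of esophageal squamous cell carcinoma. The RHCG library came from stable transfectants of a vector expressing human RHCG, a Rhesus glycoprotein that carries ammonia across membranes. The mock library came from stable transfectants of the pIRES2-EGFP vector. There was 1 library per group, 2 in all, so every difference below compares these 2 libraries, with no replicate spread and no test between groups. The labels do not say whether the transfectants were single clones or pools.

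Epithelial cells hold together through E-cadherin (CDH1) and, in squamous epithelia, P-cadherin (CDH3), whose tails bind catenins. In the epithelial to mesenchymal transition, cells lose E-cadherin and gain N-cadherin (CDH2), the intermediate filament vimentin and the matrix protein fibronectin. SNAI1, SNAI2 and ZEB1 are zinc finger repressors and TWIST1 is a basic helix-loop-helix factor; each is known to bind E-box sequences, and repression of CDH1 is their best known effect. Squamous carcinomas often keep cadherins and keratins while expressing some of these genes.

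Depth and identity were checked first. By an estimate from small RNA genes, the deposited scaling corresponded to about 22100000 reads in the RHCG library and about 18900000 reads in the mock library. At 1 RPKM (reads per kilobase of transcript, corrected for depth) each kilobase held about 22.1 reads in the RHCG library and 18.9 in the mock library. RHCG itself was at 413 RPKM in the RHCG library and was listed at 0 in the mock library. Of 12 squamous epithelial markers 11 were listed, with summed levels of 401 RPKM in the RHCG library and 504 RPKM in the mock library. KRT6A, a keratin of activated squamous epithelium, was lower, at 3.51 RPKM in the RHCG library and 38.8 RPKM in the mock library, as was the transcription factor gene SOX2 (9.62 and 23.1 RPKM). None of the 11 was higher by 2-fold, and 3 had a log2 ratio above 0. SFN, stratifin, the most abundant of them, was at 180 RPKM in the RHCG library and 254 RPKM in the mock library. The epithelial adhesion gene EPCAM was at 120 RPKM in the RHCG library and 66.5 RPKM in the mock library, with a log2 ratio of 0.84. KRT5 was listed at 0 in both libraries. Among fibroblast, endothelial and leukocyte markers, 3 of 12, 1 of 10 and 1 of 13 were listed, with summed levels of 6.90, 17.2 and 8.89 RPKM in the RHCG library and 8.97, 16.7 and 15.4 RPKM in the mock library. The fibroblast genes COL1A2, DCN and LUM were at 0 in both libraries, as were PTPRC and PECAM1, which define leukocytes and endothelium.

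In the RHCG library VIM, TGFBI and SNAI2 were lower by 2-fold or more, TWIST1 and CDH2 were lower by less than 2-fold, and CDH1 and CDH3 differed by 1.14-fold or less. FN1 lay on the other side, higher by less than 2-fold. The call was a log2 ratio of RHCG over mock, with 1 RPKM added to each value, of −1 or less (lower) or 1 or more (higher). Of the 10 genes 9 were listed above 0 in at least 1 library, 3 of these were lower and none was higher. Over all 12857 genes so listed, 3.30% were lower and 2.74% higher. At 1.5-fold, 5 of the 9 were lower and 1 was higher, against 11.5% and 11.3% of all genes. SNAI1 was among the 9 only through its value in the RHCG library, and ZEB1 was not among them. The median log2 ratio of the 9 was −0.62, against −0.01 over all genes tested, and describes these 2 libraries only. For SNAI1 it used 1 RPKM in the mock library.

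**Figure D1:**
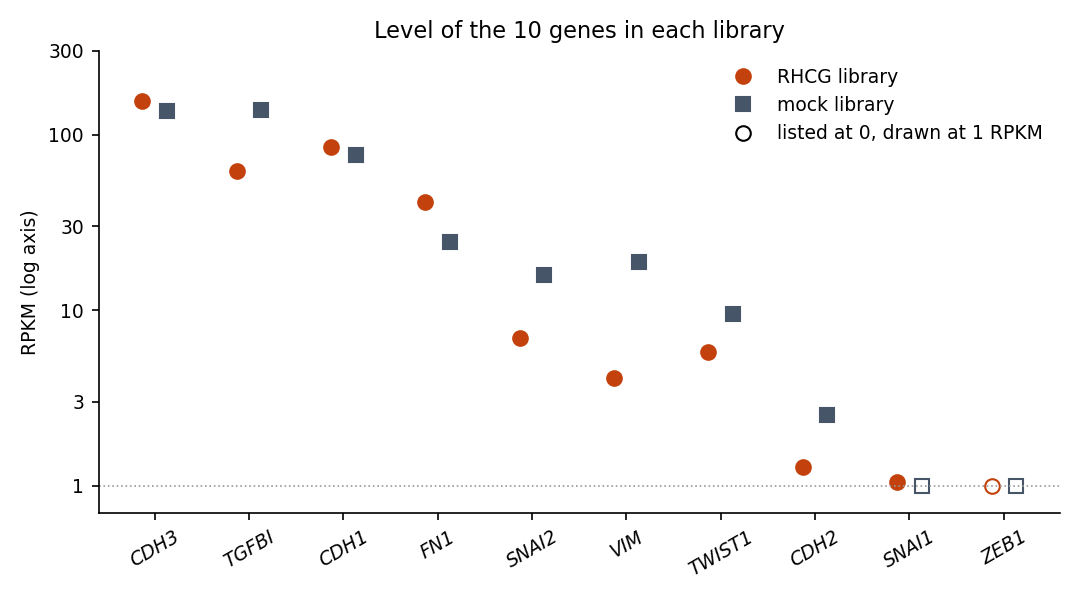
Level of each of the 10 genes in RPKM on a log axis, with the RHCG library as circles and the mock library as squares. VIM, TGFBI and SNAI2 lie clearly lower in the RHCG library, CDH1 and CDH3 are nearly level, and FN1 lies higher at 41.0 against 24.4 RPKM. Open symbols mark genes listed at 0.

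Sequence was available before the RefSeq-annotated starts of VIM, TGFBI and FN1, the filament gene and the secreted matrix genes of the group. The 250 bases before each start are shown because VIM and TGFBI are the structural genes that were lower by 2-fold and FN1 is the one that lay on the other side. Capitals mark GGGCGG or its reverse complement CCGCCC, the core of the GC box that SP-family factors bind (build GRCh38.p14, each 5′ to 3′ on the strand of the gene).
VIM, chr10:17227991-17228240, plus strand: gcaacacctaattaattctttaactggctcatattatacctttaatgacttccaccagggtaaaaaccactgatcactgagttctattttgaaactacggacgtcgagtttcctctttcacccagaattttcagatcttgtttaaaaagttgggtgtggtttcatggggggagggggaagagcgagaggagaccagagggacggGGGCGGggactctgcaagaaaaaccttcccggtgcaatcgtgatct
TGFBI, chr5:136028738-136028987, plus strand: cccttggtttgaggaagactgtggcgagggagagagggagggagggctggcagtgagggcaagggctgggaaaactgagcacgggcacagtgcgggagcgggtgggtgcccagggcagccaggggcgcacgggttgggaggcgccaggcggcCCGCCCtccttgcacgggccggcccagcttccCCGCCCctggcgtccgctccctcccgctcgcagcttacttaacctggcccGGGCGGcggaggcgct
FN1, chr2:215436069-215436318, minus strand: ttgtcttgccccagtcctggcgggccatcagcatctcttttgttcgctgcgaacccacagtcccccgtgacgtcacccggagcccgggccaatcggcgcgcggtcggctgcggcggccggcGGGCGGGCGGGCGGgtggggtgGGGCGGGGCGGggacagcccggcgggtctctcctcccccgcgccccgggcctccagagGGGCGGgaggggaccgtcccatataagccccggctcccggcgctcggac
Windows were found for 5 of the 10 genes in all.

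The GC box core occurred 1 time in the VIM window, 3 times in the TGFBI window and 6 times in the FN1 window, where neighbouring matches overlap each other. It occurred on either strand in 42.6% of all 35116 windows of this length. The E-box CACCTG, read on both strands as CACCTG or CAGGTG, is the form bound by SNAIL and ZEB proteins. It was in none of the 3 windows, and 17.5% of all windows held it. The looser E-box CANNTG, which reads the same on both strands and includes every CACCTG match, was also in none of the 3, against 61.8% of all windows. Some windows of CDH2 and ZEB1, not shown, held E-boxes and others held none. CAGATG occurred before 1 of the 2 starts of CDH2, and the other CDH2 window held no CANNTG. Some but not all of the 7 ZEB1 windows held CANNTG, and fewer held CACCTG or CAGGTG. These letters say nothing on sites outside these windows.

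VIM, the filament of mesenchymal cells, had the largest difference of the group. It was at 4.11 RPKM in the RHCG library and 18.7 RPKM in the mock library, about 194 and 756 reads. The log2 ratio was −1.95, and the plain level was 4.55-fold lower in the RHCG library, with an approximate 95% exact (Clopper-Pearson) counting interval of 3.88 to 5.35. Such intervals cover counting error only. Of 12857 genes, 37 (0.288%) had a log2 ratio at or below that of VIM. Among the 2853 other genes whose mean level lay within 1.5-fold of the VIM mean, 10 (0.351%) were as low. VIM ranked 8435 among the protein-coding genes listed in the RHCG library and 3689 among those in the mock library. VIM-AS1, the antisense gene at the locus, was listed at 0 in both libraries. In bulk RNA, fewer cells expressing a gene and less RNA in each cell cannot be told apart.

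TGFBI, a secreted protein that binds collagens and integrins and was named for its induction by TGF-beta, was abundant in both libraries. It was at 61.9 RPKM in the RHCG library and 139 RPKM in the mock library, about 3830 and 7368 reads. This was 2.24-fold lower in the RHCG library (interval 2.16 to 2.33), a log2 ratio of −1.15. It ranked 1076 among listed coding genes in the RHCG library and 388 in the mock library. Of the 679 other genes of like level, 21 (3.09%) were as low, so the value is near the 3.30% of all genes called lower. TGFBI lies on chromosome 5, where the 51 nearest protein-coding genes of at least 3 RPKM had a median log2 ratio of −0.40. With that median removed TGFBI was at −0.76 and was no longer called.

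FN1, fibronectin, the matrix protein that cells bind through integrins, was at 41.0 RPKM in the RHCG library and 24.4 RPKM in the mock library. The level was 1.68-fold higher in the RHCG library (interval 1.62 to 1.75, about 8064 and 4113 reads), a log2 ratio of 0.73 that was not called. Of 1924 other genes of like level, 175 (9.10%) were as high. The order of the matrix genes was the same in both libraries, but the gap was not: TGFBI was 1.51 times FN1 in the RHCG library and 5.69 times FN1 in the mock library, per length. FN1 was 9.98 times VIM in the RHCG library and 1.30 times VIM in the mock library. Vimentin and fibronectin, both counted as mesenchymal markers, thus lay on opposite sides.

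**Figure D2:**
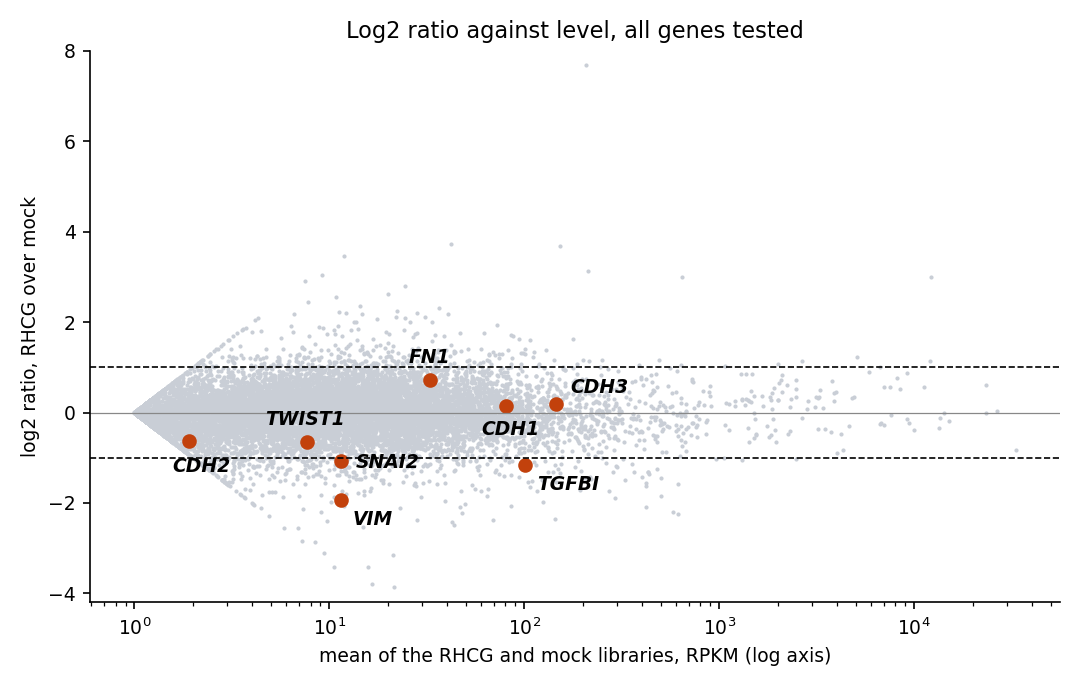
Log2 ratio of RHCG over mock, with 1 RPKM added, against the mean level in RPKM (log axis) for the 12857 genes tested (grey) and the 8 genes of the group listed in both libraries (orange). VIM at −1.95 stands at the lower edge of the genes of its level, and TGFBI and SNAI2 lie just past the dashed 2-fold line.

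CDH3, P-cadherin, was the most abundant of the genes with a CDH number and differed little. It was at 155 RPKM in the RHCG library and 136 RPKM in the mock library, 1.14-fold higher in the RHCG library (interval 1.12 to 1.17). CDH1, E-cadherin, was at 84.7 RPKM in the RHCG library and 76.5 RPKM in the mock library, 1.11-fold higher (1.07 to 1.14). Their log2 ratios were 0.19 and 0.14, and neither was called. The SD of log2 ratios over all genes was 0.543, a spread between genes that is not an error of either ratio. Both genes lie next to each other on chromosome 16, where the 51 nearest genes had a median log2 ratio of 0.00. The CDH3 level was 1.83 times that of CDH1 in the RHCG library and 1.77 times in the mock library, so their proportion was nearly the same.

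CDH2, N-cadherin, the cadherin gained in the textbook switch, was close to the lowest level the tables list. It was at 1.28 RPKM in the RHCG library and 2.52 RPKM in the mock library, about 123 and 207 reads. The plain level was 1.96-fold lower in the RHCG library (interval 1.56 to 2.47), while the log2 ratio with 1 RPKM added was −0.62, since the added value weighs on low genes. It was not called, but with the median of its 51 neighbours on chromosome 18, 0.41, removed it reached −1.03. CDH1 was 66.0 times CDH2 in the RHCG library and 30.4 times CDH2 in the mock library. E- and P-cadherin together with 3 others made up all the listed CDH signal: of 23 coding genes with a CDH number, 5 were listed in either library. Genes listed at 0 may hold some signal and add nothing to the shares given here. CDH3 made up 60.6% of the summed RPKM of the 5 in the RHCG library and 60.1% in the mock library, and CDH1 33.1% and 33.9%. CDH2 made up 0.50% in the RHCG library and 1.12% in the mock library. CDH4, R-cadherin, was at 12.4 RPKM in the RHCG library and 5.74 RPKM in the mock library, with a log2 ratio of 0.99 just short of the call. Removing the median of its neighbours put CDH4 at 1.07, past the call. CDH24 was at 2.48 and 5.35 RPKM.

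SNAI2, the repressor also named SLUG, which basal squamous cells express, was the most abundant transition factor of the group. It was at 6.98 RPKM in the RHCG library and 15.9 RPKM in the mock library, about 310 and 604 reads. The level was 2.27-fold lower in the RHCG library (interval 1.98 to 2.62), a log2 ratio of −1.08. The counting interval reaches below 2-fold, so the call lies close to its limit. Of 2853 other genes of like level, 82 (2.87%) were as low, near the share of all genes called lower. Removing the median of its 51 neighbours on chromosome 8, 0.17, gave −1.25.

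TWIST1 was at 5.75 RPKM in the RHCG library and 9.53 RPKM in the mock library. It was 1.66-fold lower in the RHCG library (interval 1.39 to 1.99, about 211 and 301 reads), a log2 ratio of −0.64 that was not called. Of 2828 other genes of like level, 272 (9.62%) were as low. SNAI2 was 1.21 times TWIST1 in the RHCG library and 1.67 times TWIST1 in the mock library.

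SNAI1 was at 1.05 RPKM in the RHCG library, about 39 reads, and was listed at 0 in the mock library. The tables list no value at or below 1 RPKM, the lowest being 1.00 in each library, so no ratio is given and these values do not show a difference. ZEB1 was listed at 0 in both libraries. A 0 in both does not show that a gene was silent, because HSPH1 and GLUL, which most cells express, were also listed at 0 in both. ZEB1-AS1, a non-coding gene divergent from ZEB1, was at 1.64 RPKM in the RHCG library and at 0 in the mock library.

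**Figure D3:**
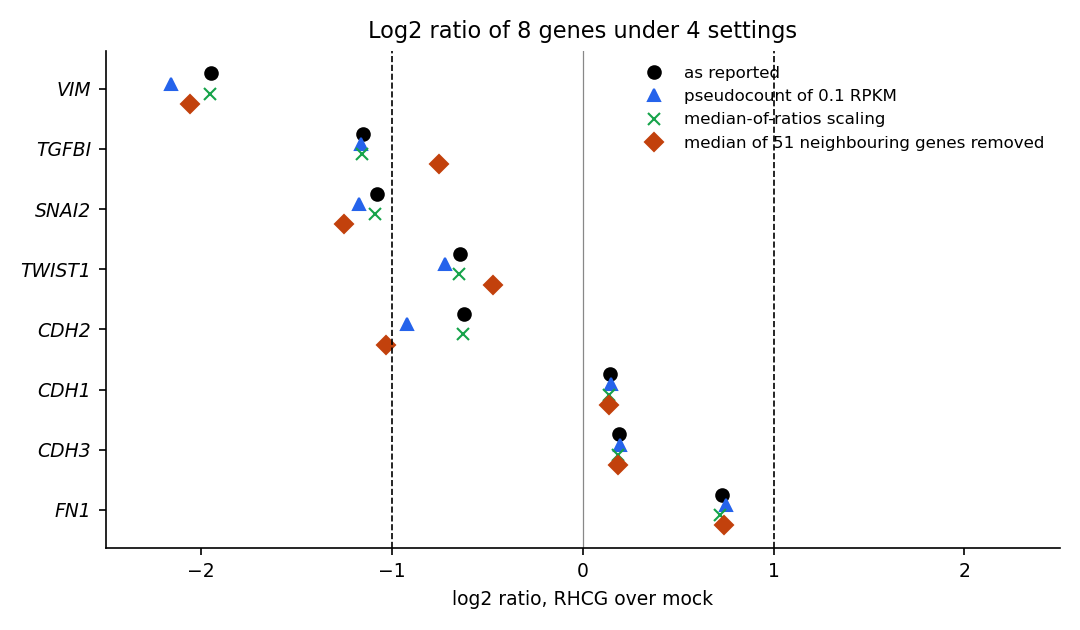
Log2 ratio of RHCG over mock for the 8 genes listed in both libraries, as reported and under 3 other settings, with dashed lines at 2-fold. VIM and SNAI2 stay past −1 in all 4, TGFBI moves to −0.76 and CDH2 to −1.03 when the median of 51 neighbouring genes is removed, and both epithelial cadherins stay near 0.

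Genes that work with these members were described by lists chosen with earlier results of these data known. Over all genes 6.04% were called in either direction. Among 21 other transition factors, 13 were listed, 1 was higher and 1 lower, with a median log2 ratio of −0.25. ETS1, an ETS-family factor active in invasive cells, was higher, at 42.8 RPKM in the RHCG library and 12.2 RPKM in the mock library. SOX4 was lower, at 9.65 and 30.9 RPKM, and SOX9 (47.4 and 23.5 RPKM) just missed the call at 0.98. Removing the median of its neighbours put SOX9 at 1.06, past the call. TCF3, an E protein that pairs with TWIST1, had a log2 ratio of −0.08. ZEB2, PRRX1 and FOXC2 were listed at 0 in both libraries.

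Among 12 regulators of epithelial identity, 11 were listed, 1 was higher and 0 lower, with a median of 0.37. The higher gene was GRHL1, a grainyhead factor of differentiating epithelium, at 10.3 RPKM in the RHCG library and 3.67 RPKM in the mock library. With the median of its neighbours removed it was no longer called, at 0.88 on the log2 scale. ESRP1, which sets epithelial splicing, was at 82.6 and 51.4 RPKM, and ELF3 at 85.8 and 88.5 RPKM. Of 20 listed cofactors and regulators of SNAIL and ZEB proteins, 2 were lower and none higher, with a median of −0.15. Both were histone methyltransferase genes: EHMT2, at 14.8 RPKM in the RHCG library and 45.4 RPKM in the mock library, and SUV39H1, at 4.63 and 10.7 RPKM. The deacetylase gene HDAC1 was at 60.8 and 120 RPKM, with a log2 ratio of −0.97, and the corepressor gene CTBP1 at 94.6 and 108 RPKM. Removing the median of its neighbours put HDAC1 at −1.02, past the call.

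Among 106 coding genes of the cadherin superfamily, 24 were listed, 2 were lower and none higher, with a median of −0.32. They were taken by CDH, CDHR, PCDH, FAT, DCHS, CELSR and CLSTN symbols. The desmosomal cadherins (DSG and DSC genes) were left out. PCDH7 was lower, at 1.10 RPKM in the RHCG library and 3.93 RPKM in the mock library. PCDHAC1 was listed at 0 in the RHCG library and at 3.26 RPKM in the mock library, so its call rests on the floor of 1 RPKM. It belongs to 8 listed genes of the clustered protocadherins on chromosome 5, which share 3′ exons and may share reads, and whose log2 ratios ran from −1.09 to −0.23. The neighbours of these genes had medians of −0.32 to −0.30. PCDH1, the most abundant protocadherin gene, was at 113 and 141 RPKM. Of 12 listed catenins, nectins and linkers of the adherens junction, 0 were called. JUP, plakoglobin, was at 185 RPKM in the RHCG library and 299 RPKM in the mock library, and CTNNA1, alpha-catenin, at 108 and 126 RPKM. Of 8 listed genes that cleave, modify or traffic cadherins, likewise 0 were called, with FURIN at 46.0 and 36.9 RPKM and ARF6 at 42.4 and 53.7 RPKM.

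VIM was 1 of 3 lower genes among the 8 listed intermediate filament genes other than keratins. LMNB1, a B-type lamin of the nuclear envelope, was at 6.03 RPKM in the RHCG library and 24.1 RPKM in the mock library, 3.99-fold lower (interval 3.59 to 4.43). SYNM, synemin, a partner of vimentin in filaments, was at 1.15 and 3.97 RPKM. LMNA, by far the most abundant of the list, was at 449 and 542 RPKM. The other 7 listed genes had a median of −0.36. Of 11 proteins that bind or modify vimentin filaments, 0 were called; the filamin A gene FLNA was at 582 RPKM in the RHCG library and 534 RPKM in the mock library.

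Most other mesenchymal genes that were listed lay on the other side of 0 from VIM. Of 31 on that list 15 were listed, 1 was lower and none higher, and 11 lay above 0, with a median of 0.21. MMP2, a gelatinase, was at 6.24 RPKM in the RHCG library and 15.2 RPKM in the mock library. AXL, a receptor tyrosine kinase of mesenchymal cells, was at 155 and 92.0 RPKM and TPM1, tropomyosin, at 72.1 and 41.8 RPKM, neither of them called. SPARC, THY1, CDH11 and POSTN were listed at 0 in both libraries. Of 9 listed integrins and syndecans that bind fibronectin or TGFBI, 1 was lower, ITGB8, at 3.17 RPKM in the RHCG library and 10.5 RPKM in the mock library, and 6 lay above 0. ITGA3 was at 373 and 239 RPKM and SDC1 at 244 and 258 RPKM. Of 11 listed TGF-beta ligands, receptors and SMAD pathway genes, 0 were called, with a median of 0.04; TGFBR2 was at 28.3 and 33.8 RPKM and SMAD3 at 19.2 and 21.6 RPKM.

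**Figure D4:**
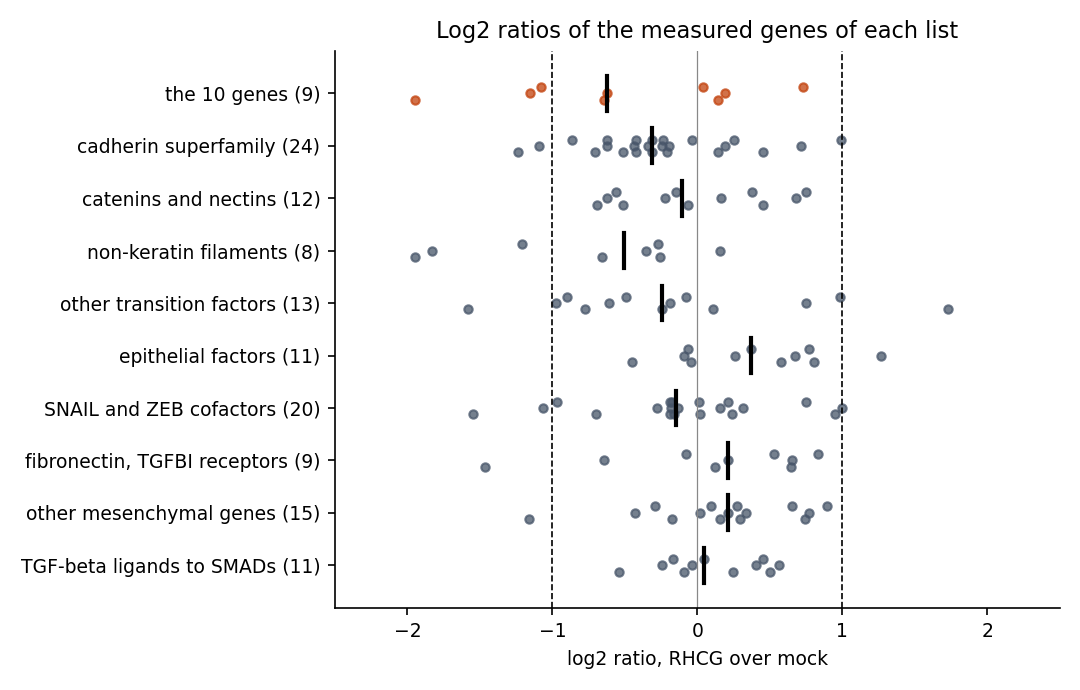
Log2 ratio of RHCG over mock for each listed gene of 10 lists, with the number of listed genes in brackets, black bars at the medians, dashed lines at 2-fold and a thin line at the median of all genes. The 9 listed of the 10 genes have a median of −0.62, other mesenchymal genes 0.21 and epithelial factors 0.37. Most genes of every list lie between the dashed lines. Genes listed at 0 in 1 library are drawn with that value set to 1 RPKM.

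Several miRNAs known to target the transition factors have their own rows, and the mature sequences (RefSeq, GRCh38.p14) are given with the seed, bases 2 to 8, in capitals. They are grouped by seed, since the miR-200 family that targets ZEB1 and ZEB2 has a pair of closely similar seeds.
miR-200c-3p, seed AAUACUG: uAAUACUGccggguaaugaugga
miR-200b-3p, the same seed: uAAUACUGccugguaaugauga
miR-200a-3p, seed AACACUG: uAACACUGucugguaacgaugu
miR-205-5p, seed CCUUCAU: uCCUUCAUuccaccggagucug
miR-34a-5p, seed GGCAGUG: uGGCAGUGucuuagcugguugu
miR-30a-5p, seed GUAAACA: uGUAAACAuccucgacuggaag

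The table holds 1 value for each precursor, so the arms cannot be told apart, and reads of a host transcript fall on the same bases. MIR205, of squamous and basal epithelium, was at 199 RPKM in the RHCG library and 178 RPKM in the mock library, and its host gene MIR205HG at 141 and 173 RPKM. MIR200C was at 13.4 and 11.4 RPKM, about 20 and 15 reads. Of 8 listed genes of this list 2 were higher and 0 lower. MIR34A, a p53 target that represses SNAI1, was at 11.4 RPKM in the RHCG library and 1.76 RPKM in the mock library, about 28 and 4 reads, a ratio of 6.49 with a counting interval of 2.19 to 27.5. MIR30A, known to target SNAI1, was at 9.06 and 2.23 RPKM, about 14 and 3 reads, a ratio of 4.06 with an interval of 1.14 to 22.0. Both values rest on few reads, and the interval of MIR30A comes close to a ratio of 1.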

How the data were processed

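Total RNA of stable KYSE30 transfectants was depleted of ribosomal RNA and made into barcoded Ion Torrent libraries, per the labels' protocols. The submitters' processing notes name the build hg19 and the tool bedtools, version 2.25.0. The aligner, the way reads were counted and the use of strand are not given in the sources here. The authors deposited 1 table per library of log2 values of RPKM, with no pseudocount and no value below 0. Rows (40448) were summed to 40392 Entrez genes; RefSeq (GRCh38.p14) named 94.2% of them. Genes listed at 0 were set to 1 RPKM, and the filter was a mean above 1 RPKM. The log2 ratio of RHCG over mock used a pseudocount of 1 RPKM and the deposited scaling.

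Depth was estimated from single-exon small RNA genes. For each library the constant was taken whose multiples best matched their unlogged values times length (45.3 for RHCG, 52.8 for mock). Only 38.2% and 25.8% of those under 20 reads lay within 0.01 of a whole number, so counts were not recovered and depth is approximate. Approximate reads used the longest GENCODE 29 transcript paired with RefSeq, or the precursor length for miRNA genes; the authors' lengths may differ. Members, lists and rules were chosen with earlier results of these data known. Named genes were all members, up to 4 called and the 2 most abundant genes of each list, and all called and the 3 most abundant of the cadherin superfamily; 1 gene that this names is not reported here. Other genes named at 0, CDH4, CDH24 and MIR200C were chosen after their values were seen. The ratio rule was run on simulated data with counting noise only, in which most genes were unchanged. Its pass mark pooled all genes, so it could not show whether changed genes were recovered. Software was Python 3.11.15 with scipy 1.17.1, pandas 2.3.3, numpy 2.4.6 and matplotlib 3.10.9.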

Additional observations from a re-analysis of the deposited data

How the results depend on the processing

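No paired analysis was possible because each group held a single library, which also means that none could be left out. Over 8 planned settings and 1 filter added after the data were seen (a mean of at least 5 RPKM), 69 of 71 log2 ratios of the 8 genes listed in both libraries stayed within counting error of the reported value, and none of the called ones turned its sign. The exceptions came with the median of 51 neighbouring genes removed: TGFBI was at −0.76 and CDH2 at −1.03. The cause was not tested. Much of the agreement among the 71 was fixed in advance. The filters, the floor and the 1.5-fold call cannot change the ratio of a gene listed in both libraries. The choice of row left these ratios unchanged. Only the pseudocount, the 2 scalings and the neighbour setting moved them. The 3 lower genes of the group were 5 with a 1.5-fold call, and the 0 higher became 1 (FN1) with that call and 1 (SNAI1) with genes listed at 0 set to 0 RPKM. Over all genes, 352 were higher and 424 lower as reported. A pseudocount of 0.1 RPKM gave 533 and 673, a floor of 0 RPKM for genes listed at 0 gave 686 and 1004, and a 1.5-fold call gave 1447 and 1481; all 3 loosen the rule by construction. Counts of called genes in the other lists stayed within 1.5 times under 125 of 144 alternatives. The floor of 1 RPKM limits what can be said of CDH2, SNAI1 and ZEB1.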
